A study of Homo sapiens with 16 samples.

Results

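The cholesterol genes described here are 30 of the 20531 entries in the count table of an RNA-seq experiment in LNCaP, a human prostate cancer line that responds to androgen. They were chosen by symbol: 8 enzymes of the mevalonate steps, 11 enzymes from squalene to cholesterol, 5 regulators of the SREBP system, 2 further SREBP targets and 4 genes of cholesterol transport and storage. The table uses older symbols for 2 of them, SC4MOL for MSMO1 and SC5DL for SC5D. All 30 were measured in each library and passed the filter on low counts in each comparison.

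LNCaP cells were transfected with a nonsense control siRNA (NS) or with a pool of siRNAs against SLIRP, an RNA-binding protein that was studied as a coregulator of the androgen receptor, and afterwards received either vehicle or the androgen dihydrotestosterone (DHT) at 1 nM in medium without serum. This gave 4 groups of 4 libraries, all in the same cell line: NS-Veh and SLIRP-Veh received vehicle, and NS-1nM DHT and SLIRP-1nM DHT received the hormone. The replicates came from 2 experiments with 2 biological replicates each, and the labels do not say which library belongs to which experiment. One nonsense siRNA was the control for a pool, so the effect of lowering SLIRP and any effect of the siRNA sequences themselves cannot be told apart. The comparisons ask which transcripts depend on SLIRP, on androgen, or on both.

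Library totals lay between 436353 and 1689708 counts. SLIRP, listed under its older symbol C14orf156, lay between 45.1 and 63.4 CPM (each count as a share of its library, on a scale shared by all libraries) in the 8 NS libraries and between 1.41 and 8.04 CPM in the 8 SLIRP siRNA libraries, so the groups did not overlap. KLK3, which encodes prostate-specific antigen and is induced by androgen, was at 39.5 ± 13.7 CPM in NS-Veh and at 288 ± 43.9 CPM in NS-1nM DHT (mean ± SD, n = 4). The epithelial keratins KRT8 and KRT18 and the prostate marker FOLH1 were expressed in each group, whereas KRT5 (basal cells), PTPRC (leukocytes) and PECAM1 (endothelium) were at 0 counts in all 16 libraries. The other basal marker, KRT14, reached 1.54 CPM in NS-1nM DHT and the fibroblast marker COL1A2 4.00 CPM in NS-Veh, at most 2 counts in a library, and both were at 0 in the other 3 groups. In bulk RNA, fewer cells of a type and less RNA per cell cannot be told apart, and CPM are shares of a library.

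Cells make cholesterol from acetyl-CoA. The mevalonate steps build isoprenoid units, which also feed protein prenylation and ubiquinone, and the later steps join them to squalene, close the ring to lanosterol and trim it to cholesterol. Transcription of these enzymes is set mainly by SREBP2, made by SREBF2: when sterols in the endoplasmic reticulum are low, SCAP escorts it to the Golgi, where it is cleaved to an active factor, and when sterols are high, INSIG proteins hold SCAP back. INSIG1 is itself an SREBP target, and in LNCaP cells androgen is known to raise lipid synthesis through the same system.

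SREBP acts on promoters through a sterol regulatory element together with CCAAT boxes, bound by NF-Y, and GC boxes, bound by Sp1. RefSeq promoters on GRCh38.p14, 250 bases before to 50 bases after the start, were matched for 27 of the 30 genes. ACAT2, FDFT1 and SQLE were not matched. The element TCACNCCAC, searched on both strands, occurred in 1 of 27, which was SREBF2, where it starts 133 bases before the start site. It occurred in 1.15% of 27305 promoters in the table and in 1.11% of the 8313 that belong to genes tested between siRNAs. CCAAT was found in 17 of 27 (63.0%), compared with 37.8% of the promoters of tested genes, and GGGCGG in 25 of 27 (92.6%), compared with 71.9%. All were searched on both strands, and ATTGG can share its last 2 bases with GGGCGG. Only exact matches were counted, so sites that differ from these letters were not seen. These matches are descriptions of letters in a window.

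Shown here are the promoters of the genes whose NS and SLIRP siRNA libraries did not overlap and that hold a CCAAT match, followed by SREBF2. Capitals mark CCAAT or its reverse complement ATTGG and, in SREBF2, also the sterol regulatory element. Each is given 5′ to 3′ on the plus strand of GRCh38.p14, at chr12:109573544-109573843 for MVK, chrX:48521558-48521857 for EBP, chr7:155297628-155297927 for INSIG1, chr11:65111622-65111921 for TM7SF2, chr11:121292521-121292820 for SC5DL (SC5D) and chr22:41832855-41833154 for SREBF2.
MVK: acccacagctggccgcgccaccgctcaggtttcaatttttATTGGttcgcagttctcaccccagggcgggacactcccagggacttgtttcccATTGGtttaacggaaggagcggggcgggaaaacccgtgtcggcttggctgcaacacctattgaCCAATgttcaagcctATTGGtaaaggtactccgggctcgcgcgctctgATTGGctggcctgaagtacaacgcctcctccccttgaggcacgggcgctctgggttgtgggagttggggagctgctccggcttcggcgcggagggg
EBP: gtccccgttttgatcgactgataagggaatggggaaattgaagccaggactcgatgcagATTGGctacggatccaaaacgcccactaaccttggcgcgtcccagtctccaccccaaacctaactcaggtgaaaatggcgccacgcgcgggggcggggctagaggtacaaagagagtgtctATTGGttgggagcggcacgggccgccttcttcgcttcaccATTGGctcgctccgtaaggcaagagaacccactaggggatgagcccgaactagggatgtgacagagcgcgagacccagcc
INSIG1: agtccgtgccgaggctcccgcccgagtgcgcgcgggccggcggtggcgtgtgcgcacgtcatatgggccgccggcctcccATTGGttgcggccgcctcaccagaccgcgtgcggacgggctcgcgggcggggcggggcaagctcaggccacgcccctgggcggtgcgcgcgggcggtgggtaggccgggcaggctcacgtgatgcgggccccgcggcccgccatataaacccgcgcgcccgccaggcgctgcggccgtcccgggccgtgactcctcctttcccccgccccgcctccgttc
TM7SF2: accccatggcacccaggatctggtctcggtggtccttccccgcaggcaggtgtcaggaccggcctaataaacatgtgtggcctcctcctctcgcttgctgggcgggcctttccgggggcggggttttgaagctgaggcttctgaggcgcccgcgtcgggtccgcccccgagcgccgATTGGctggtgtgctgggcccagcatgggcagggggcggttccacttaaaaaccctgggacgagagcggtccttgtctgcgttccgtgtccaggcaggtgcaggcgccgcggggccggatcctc
SC5DL: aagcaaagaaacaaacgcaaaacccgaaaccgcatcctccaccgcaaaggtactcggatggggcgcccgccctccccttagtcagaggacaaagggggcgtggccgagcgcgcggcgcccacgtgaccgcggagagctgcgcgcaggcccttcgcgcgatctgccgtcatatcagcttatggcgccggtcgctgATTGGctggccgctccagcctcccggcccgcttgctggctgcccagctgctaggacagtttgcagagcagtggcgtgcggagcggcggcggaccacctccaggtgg
SREBF2: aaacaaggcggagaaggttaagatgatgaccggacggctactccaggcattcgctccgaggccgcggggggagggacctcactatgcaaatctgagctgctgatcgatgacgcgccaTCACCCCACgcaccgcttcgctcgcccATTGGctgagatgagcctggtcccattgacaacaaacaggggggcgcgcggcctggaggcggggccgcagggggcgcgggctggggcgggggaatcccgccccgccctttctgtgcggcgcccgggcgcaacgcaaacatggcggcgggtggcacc

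MVK held 5 CCAAT matches within its 300 bases, EBP 3 and INSIG1, TM7SF2, SC5DL and SREBF2 1 each. Genes higher and genes lower with SLIRP siRNA both appear in this set, and IDI1, whose libraries also did not overlap, held none.

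Levels were compared between genes per kb of the canonical transcript. In NS-Veh the highest were TM7SF2 at 212 ± 5.46, FDFT1 at 158 ± 6.54 and CYP51A1 at 97.5 ± 10.9 CPM per kb (mean ± SD, n = 4). INSIG1, SC4MOL and FDPS followed at means of 94.7, 93.3 and 91.8 CPM per kb. The lowest were ABCA1 at 3.03 ± 0.715, MVK at 8.01 ± 0.571 and SOAT1 at 8.47 ± 1.05 CPM per kb. The order changed with SLIRP siRNA: TM7SF2 led in NS-Veh but was at a mean of 105 CPM per kb in SLIRP-Veh. There it lay below FDFT1 at 178, INSIG1 at 154, CYP51A1 at 119 and FDPS at 116.

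**Figure D1:**
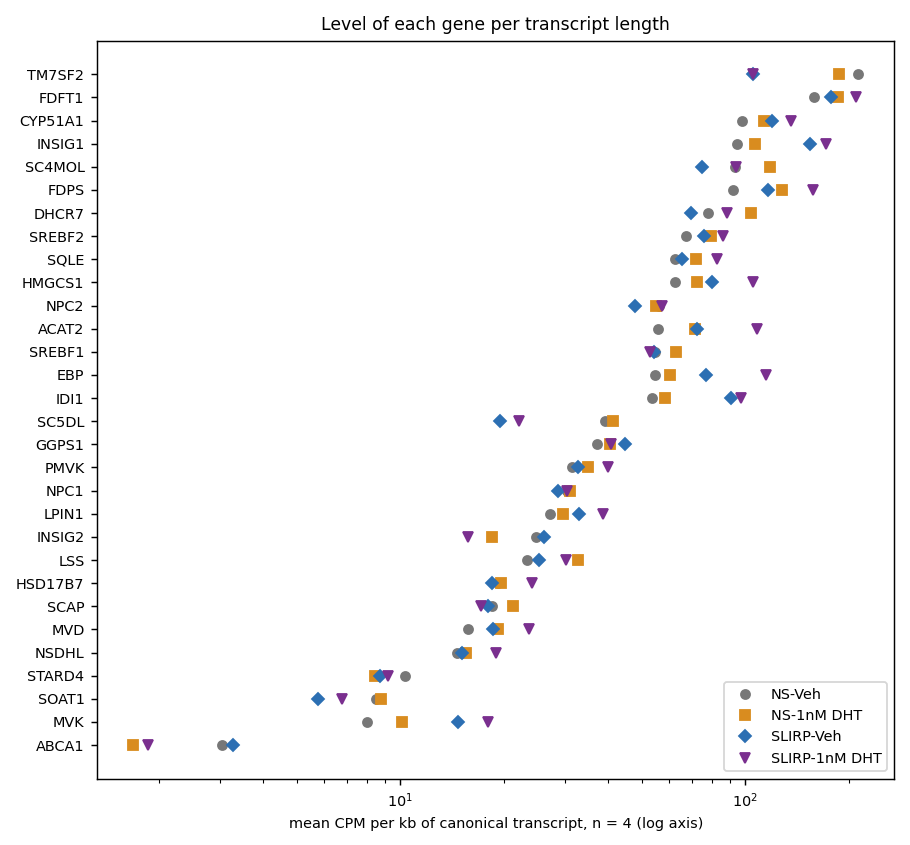
Mean CPM per kb of canonical transcript (log x axis, n = 4 libraries per point) for each of the 30 genes (y axis, ordered by NS-Veh) in the 4 groups, one marker each. The SLIRP siRNA markers for TM7SF2 and SC5DL sit left of both NS markers, those for INSIG1, IDI1, EBP and MVK sit right of them, and both DHT markers for ABCA1 sit left of both vehicle markers.

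**Figure D2:**
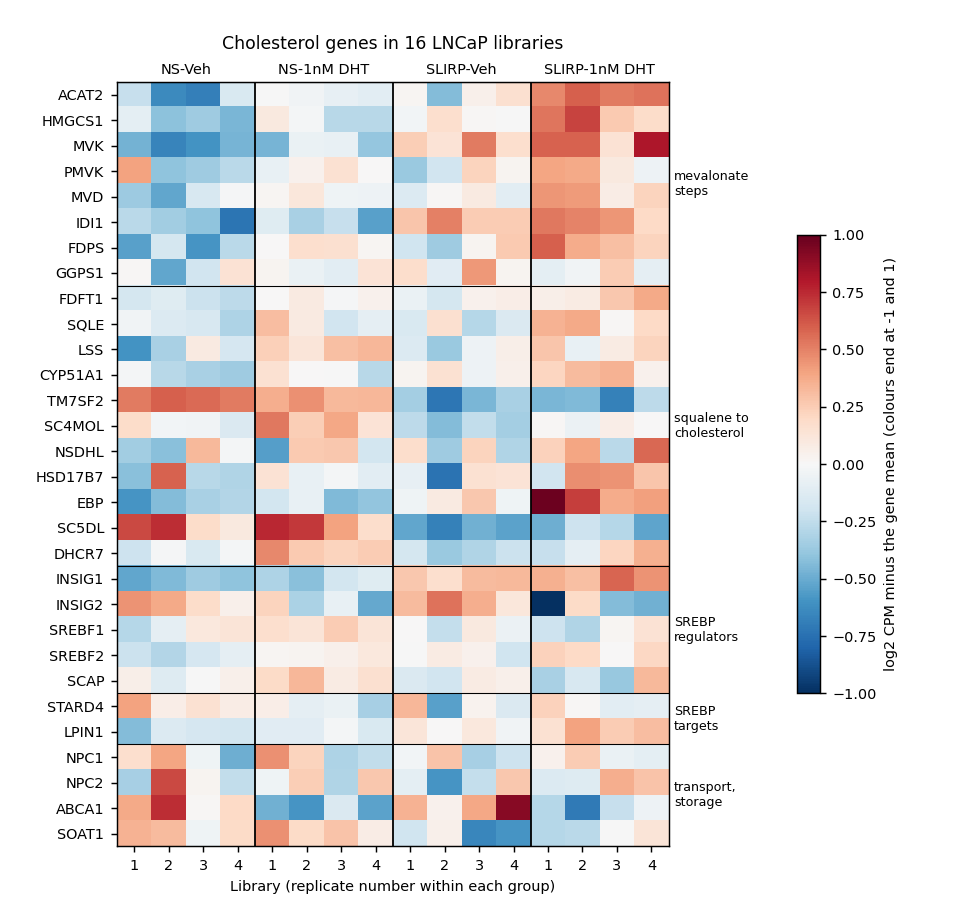
Log2 CPM of the 30 genes (y axis, grouped by role) in the 16 libraries (x axis, 4 replicates in each of 4 groups), each gene centred on its own mean, with colours ending at -1 and 1. TM7SF2 and SC5DL are above their mean in the 8 NS libraries and below it in the 8 SLIRP siRNA libraries, and INSIG1 and IDI1 show the opposite.

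The SLIRP and NS siRNAs were first compared across the 8 and 8 libraries, pooling both treatments. Of the 8 mevalonate enzymes 4 were higher, and among the late sterol enzymes TM7SF2 and SC5DL were lower by nearly a factor of 2. At an edgeR false discovery rate (FDR) under 0.01, 8 of the 30 genes were higher (26.7%), against 17.8% of all 10167 genes tested, and 4 were lower (13.3%), against 17.4%. These shares lay close to those of all genes, so the number of calls does not set the 30 genes apart. The median log2 fold change of the 30 was 0.12, against -0.01 over all genes tested, and the median size of the change was 0.20, against 0.29. The libraries did not overlap between the siRNAs for 4 genes that were higher, MVK, IDI1, EBP and INSIG1, where 7.89% of all genes were separated in that direction, and for 2 that were lower, TM7SF2 and SC5DL, where 7.28% were. In what follows, fold changes are log2 values of SLIRP siRNA over NS with their standard error (SE).

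Among the mevalonate enzymes, 4 of 8 were higher (50%, against 17.8% of all genes tested) and none was lower (against 17.4%). All 8 had a fold change above 0, with a median of 0.37, against -0.01 over all genes. The share of all genes with a fold change above 0 was not counted in this comparison. MVK, mevalonate kinase (chr12:110011060-110035930 on hg19, as are the gene positions that follow), was at 24.0, 20.9, 21.8 and 24.1 CPM in NS-Veh and 24.1, 32.4, 32.2 and 25.6 CPM in NS-1nM DHT. It was at 40.8, 37.6, 49.8 and 38.6 CPM in SLIRP-Veh and 52.2, 52.2, 37.9 and 61.1 CPM in SLIRP-1nM DHT. The lowest SLIRP siRNA library thus lay above the highest NS library, and the difference was 0.82 (SE 0.14, FDR = 1.32e-05), or 1.76-fold, on 9 to 76 counts per library. MVK starts beside MMAB on the other strand, and 2.50% of its exonic bases are shared with it.

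IDI1 (chr10:1085092-1095059), the isomerase that makes the reactive isoprenoid unit, was at 164, 155, 149 and 119 CPM in NS-Veh and 181, 158, 168 and 135 CPM in NS-1nM DHT. Its values were 240.3, 282, 237 and 237 CPM in SLIRP-Veh and 287, 281, 269.9 and 228 CPM in SLIRP-1nM DHT. No SLIRP siRNA library reached down to the NS range, and the difference was 0.74 (SE 0.08, FDR = 7.92e-09), or 1.67-fold.

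HMGCS1 (chr5:43287572-43313614), the synthase that adds the next acetyl unit, was at 390.3, 313, 326 and 304 CPM in NS-Veh and 447, 411, 344 and 344 CPM in NS-1nM DHT. It was at 410.2, 468, 421 and 415 CPM in SLIRP-Veh and 605, 668, 500.1 and 475 CPM in SLIRP-1nM DHT. Within each treatment the SLIRP siRNA libraries were above the NS libraries, and over both treatments the groups overlapped, with a difference of 0.45 (SE 0.09, FDR = 0.000213). ACAT2 (chr6:160183077-160200144), the cytosolic thiolase of the first step, was at 96.1, 71.9, 69.4 and 101 CPM in NS-Veh and 112, 110.3, 106 and 105 CPM in NS-1nM DHT. It was at 114, 83.0, 117 and 126 CPM in SLIRP-Veh and 158, 172, 162 and 165 CPM in SLIRP-1nM DHT. The 4 SLIRP-1nM DHT libraries were above all others, replicate 2 of SLIRP-Veh lay within the NS range, and the difference was 0.49 (SE 0.12, FDR = 0.00119).

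The other mevalonate enzymes did not pass. FDPS, farnesyl diphosphate synthase, differed by 0.29 (SE 0.12, FDR = 0.0406), and it passed once treatment was a covariate of the fit (FDR = 0.00105). PMVK, MVD and GGPS1, which makes the longer isoprenoid for prenylation, had fold changes of 0.11, 0.20 and 0.12. The strand of counting is not given in the sources used here, and over 10% of the exonic bases of ACAT2, HMGCS1, IDI1, FDPS, GGPS1, CYP51A1 and EBP are shared with another annotated gene, so reads of the other gene may be part of their counts. The shared part ran from 15.0% for IDI1 to 74.1% for CYP51A1, with EBP at 36.4%. CYP51A1, EBP and GGPS1 are overlapped on their own strand too, where the strand of counting would not separate the reads.

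Of the 11 enzymes from squalene to cholesterol, 2 were higher (18.2%, against 17.8% of all genes tested). Another 3 were lower (27.3%, against 17.4%) and 6 did not pass, so calls in both directions also occurred among all genes. TM7SF2 (chr11:64879317-64883856), a sterol reductase that acts right after the lanosterol demethylase, was at 328, 345, 339 and 328 CPM in NS-Veh and 295, 313, 286 and 288 CPM in NS-1nM DHT. It was at 179.9, 138, 165 and 182 CPM in SLIRP-Veh and 166, 168, 142 and 189.8 CPM in SLIRP-1nM DHT. The highest SLIRP siRNA library lay far below the lowest NS library, and the difference was -0.91 (SE 0.07, FDR = 1.99e-11), or 1.88-fold lower.

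SC5DL (chr11:121163390-121184119), the desaturase that acts just before the last reductase, was at 310.2, 329, 223 and 210.4 CPM in NS-Veh and 332, 322, 259.5 and 222 CPM in NS-1nM DHT. It was at 136, 122, 139.9 and 135 CPM in SLIRP-Veh and 139.5, 169, 160.2 and 135 CPM in SLIRP-1nM DHT. The NS libraries spread more widely, with replicates 1 and 2 of both NS groups the highest, but none came down to the SLIRP siRNA range. The difference was -0.94 (SE 0.10, FDR = 3.8e-09), or 1.92-fold lower.

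EBP (chrX:48380187-48387104), the sterol isomerase between these steps, moved the other way. It was at 54.0, 60.3, 65.4 and 66.6 CPM in NS-Veh and 72.3, 77.9, 60.1 and 62.2 CPM in NS-1nM DHT. It was at 79.9, 87.7, 99.6 and 79.8 CPM in SLIRP-Veh and 164, 134, 107 and 110.2 CPM in SLIRP-1nM DHT. The groups did not overlap, the SLIRP-1nM DHT libraries were the highest, and the difference was 0.68 (SE 0.13, FDR = 4.51e-05), or 1.61-fold.

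CYP51A1, the lanosterol demethylase, was higher by 0.27 (FDR = 0.00482), with overlapping groups. SC4MOL, the methylsterol oxidase, was lower, with a fold change of -0.33 (FDR = 0.00372), and its groups overlapped. FDFT1 (squalene synthase), SQLE (squalene epoxidase), LSS (lanosterol synthase), NSDHL, HSD17B7 and DHCR7 (the last reductase) did not pass, with fold changes between -0.21 for DHCR7 and 0.20 for HSD17B7. Like FDPS, FDFT1 (0.17, FDR = 0.0631) passed once treatment was a covariate of the fit (FDR = 0.00953). HSD17B7 has a near-identical copy, HSD17B7P2, and its counts are uncertain.

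Of the 5 regulators, only INSIG1 passed in this comparison. INSIG1 (chr7:155089486-155101945) was at 258, 273, 290.0 and 280.2 CPM in NS-Veh and 299, 277, 326 and 341 CPM in NS-1nM DHT. It was at 448, 416, 461 and 466 CPM in SLIRP-Veh and 475, 458, 555 and 507 CPM in SLIRP-1nM DHT. Each SLIRP siRNA library was above each NS library, with a difference of 0.68 (SE 0.07, FDR = 1.36e-09), or 1.60-fold. The transcripts of the factors themselves and of their escort changed little: SREBF2 had a fold change of 0.12, SREBF1 of -0.15, SCAP of -0.19 and INSIG2 of -0.01, and none passed.

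LPIN1, a phosphatidate phosphatase and SREBP target, was higher by 0.32 (FDR = 0.000705), and STARD4, a cytosolic sterol carrier, had a fold change of -0.01. SOAT1, which esterifies cholesterol for storage, was lower, with a fold change of -0.43 (FDR = 0.00432). Its NS libraries ran from 48.2 to 69.2 CPM with a median of 59.0, and its SLIRP siRNA libraries ran from 30.9 to 54.7 CPM with a median of 42.1. The SOAT1 groups overlapped. NPC1 and NPC2, which export cholesterol from lysosomes, and ABCA1, which exports it from the cell, had fold changes of -0.04, -0.02 and 0.27 and did not pass. The count of 4 lower genes fell to 2, TM7SF2 and SC5DL, when replicate 1 of NS-1nM DHT or replicate 3 or 4 of SLIRP-Veh was left out.

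**Figure D3:**
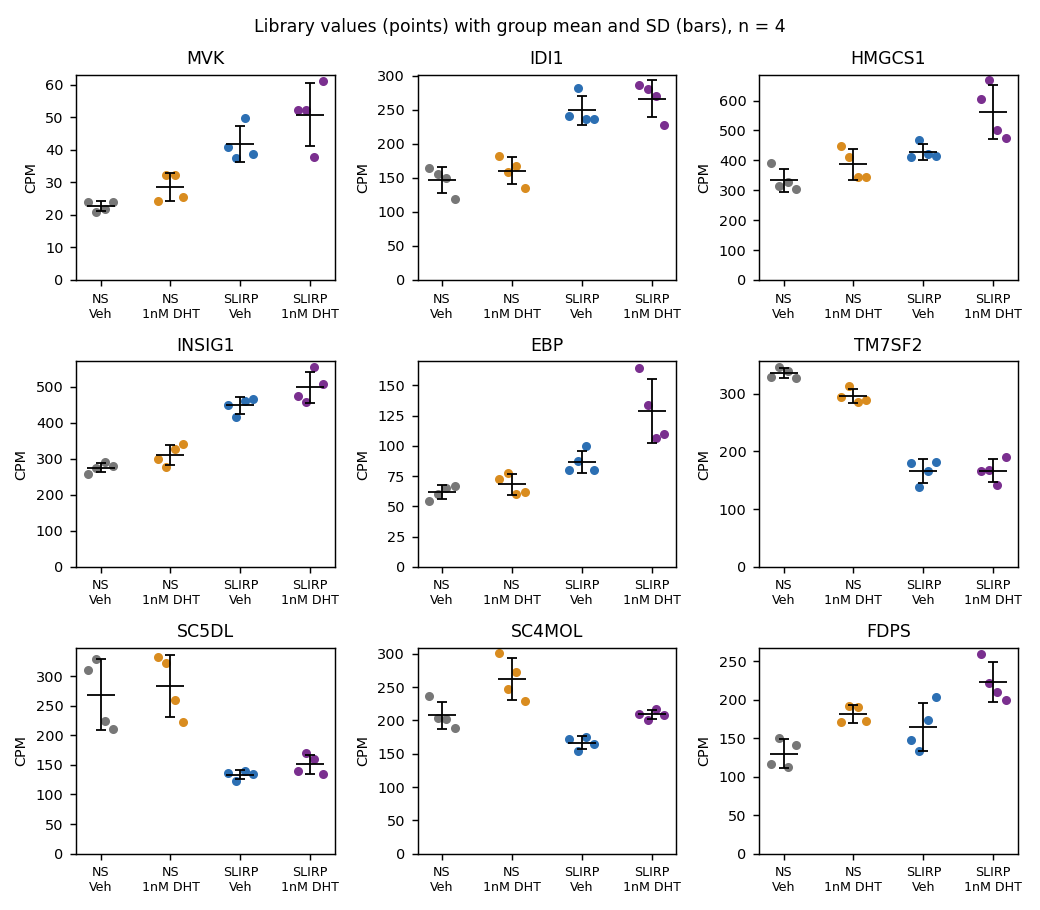
CPM (y axis, from 0) of 9 genes in each library (points) of the 4 groups (x axis), with the group mean and SD as black bars (n = 4). The NS and SLIRP siRNA points do not overlap for MVK, IDI1, INSIG1, EBP, TM7SF2 and SC5DL, and they overlap for HMGCS1, SC4MOL and FDPS.

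The comparison was then made within each treatment, as contrasts of a model of the 4 groups over 10684 genes. In vehicle, 4 genes were higher with SLIRP siRNA (13.3%, against 11.8% of all genes) and 2 were lower (6.67%, against 9.95%). In DHT, 7 were higher (23.3%, against 12.8%) and 3 were lower (10% against 11.6%). The 2 treatments share no library, but the model estimates the spread from all 16 libraries together.

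MVK, IDI1, INSIG1 and HMGCS1 were higher in both treatments. IDI1 differed by 0.78 (SE 0.11, FDR = 5.73e-07) in vehicle and by 0.73 (SE 0.10, FDR = 5.86e-07) in DHT. INSIG1 differed by 0.69 (FDR = 4.72e-08) and 0.69 (FDR = 1.53e-08), MVK by 0.86 (FDR = 0.000799) and 0.83 (FDR = 0.000241), and HMGCS1 by 0.37 (FDR = 0.00522) and 0.53 (FDR = 3.21e-05). The pair of lower sterol enzymes was lower in both, TM7SF2 with fold changes of -0.98 (SE 0.09, FDR = 1.87e-10) in vehicle and -0.82 (SE 0.09, FDR = 7.11e-09) in DHT, and SC5DL with -0.93 (FDR = 6.45e-07) and -0.91 (FDR = 2.99e-07). HMGCS1 in vehicle no longer passed when any 1 of 6 libraries was left out: replicate 2, 3 or 4 of NS-Veh or replicate 1, 2 or 3 of SLIRP-Veh, with FDR values of 0.0107 to 0.0226.

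ACAT2, EBP and LPIN1 passed as higher, and SC4MOL as lower, in DHT but not in vehicle. EBP differed by 0.89 (SE 0.13, FDR = 1.19e-06) in DHT and by 0.43 (FDR = 0.023) in vehicle. ACAT2 differed by 0.60 (FDR = 6.18e-05) and 0.41 (FDR = 0.014), LPIN1 by 0.39 (FDR = 0.000905) and 0.27 (FDR = 0.0324), and SC4MOL by -0.32 (FDR = 0.00617) and -0.29 (FDR = 0.0226). The difference between treatments, tested as an interaction, passed for none of the 30 genes. SC4MOL in DHT lost its call in 12 of the alternatives, with FDR values of up to 0.0493.

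**Figure D4:**
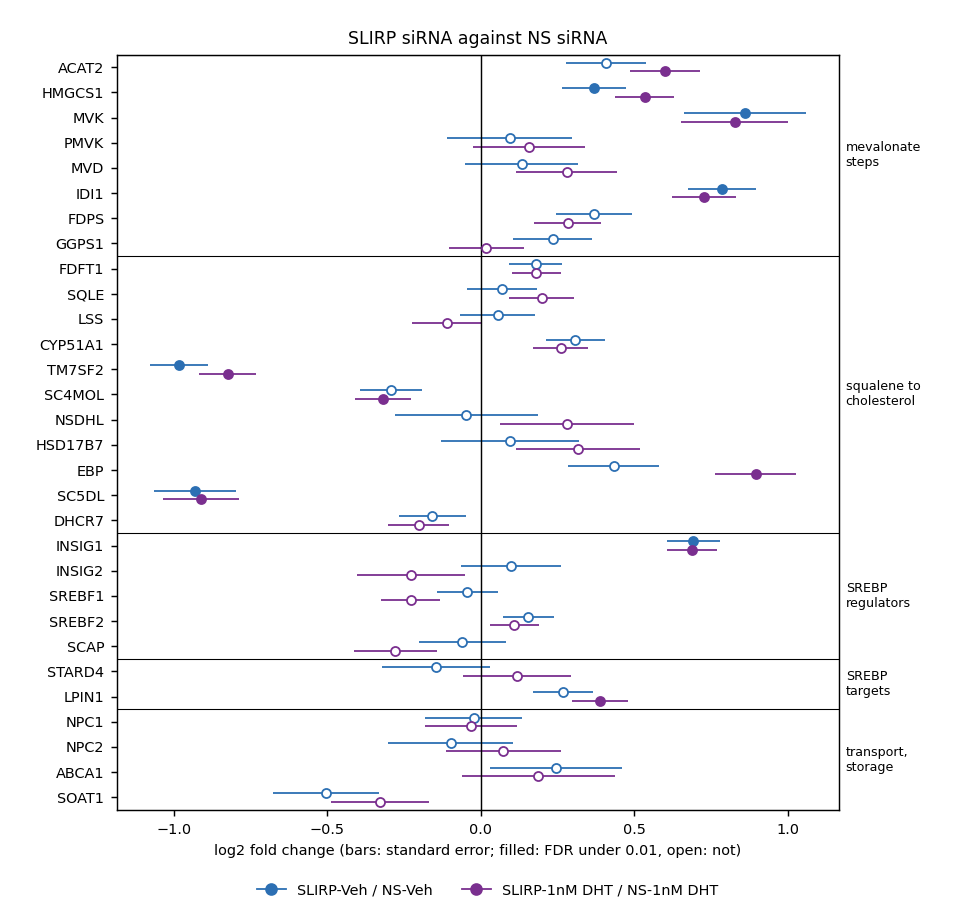
Log2 fold change of SLIRP siRNA over NS (x axis, bars are the SE) for each of the 30 genes in pathway order (y axis), in vehicle and in 1 nM DHT, from 4 libraries per group. Filled points have an FDR under 0.01, and the 8 mevalonate enzymes lie right of 0 in both treatments while TM7SF2, SC4MOL, SC5DL and DHCR7 lie left of it.

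DHT was compared with vehicle in the NS libraries (4 against 4). A fold change above 0 was seen for 25 of the 30 genes (83.3%, against 50.2% of the 10338 genes tested in both siRNAs), with a median of 0.15 against 0.000997 over all genes. Only FDPS and DHCR7 passed as higher (6.67%, against 0.849% of 10367 genes) and 0 as lower (0.463% of all genes) with edgeR, and DESeq2 also gave 0 lower. At an unadjusted p under 0.05, 13 of 30 differed in either direction, against 14.3% of all genes. FDPS (chr1:155278539-155290457) rose from 116, 151, 112 and 141 CPM in NS-Veh to 171, 192, 191 and 173 CPM in NS-1nM DHT, with no overlap, a difference of 0.50 (SE 0.10, FDR = 0.0034). DHCR7 (chr11:71139239-71163914) rose from 190.1, 218, 198 and 216 CPM to 306, 263, 256 and 263 CPM, also without overlap, a difference of 0.39 (SE 0.09, FDR = 0.00652). Both calls were marginal: neither passed in DESeq2, in the 4-group model or with limma on the normalized table, 0 passed without replicate 1 or 3 of NS-Veh or replicate 2 or 3 of NS-1nM DHT, and 1 passed without any other NS library. The libraries did not overlap for 8 higher genes (against 4.87% of all genes) and 3 lower ones (against 3.9%), the latter TM7SF2, STARD4 and ABCA1. These 3 had edgeR FDR values of 0.22, 0.446 and 0.0711. The STARD4 groups nearly touched, at 44.038 CPM for the lowest NS-Veh and 44.036 CPM for the highest NS-1nM DHT library. Gaps were also thin for MVK and SCAP, counted among the 8 higher genes. The highest NS-Veh and lowest NS-1nM DHT libraries were at 24.090 and 24.115 CPM for MVK and at 82.1 and 83.6 CPM for SCAP.

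DHT was then compared with vehicle in SLIRP siRNA cells, whose libraries were not in the NS comparison, but the fit was unlike. It was a contrast of the 4-group model, whose filter, scaling and spread used all 16 libraries. In that model NS cells gave 0 higher genes. In SLIRP siRNA cells 2 genes were higher with edgeR, ACAT2 and EBP (6.67%, against 0.636% of 10684 genes). The edgeR contrast gave 0 lower (0.534% of all genes), where DESeq2 gave 1. At an unadjusted p under 0.05, 15 of 30 differed in either direction, against 15.6% of all genes. The fold change lay above 0 for 23 of 30 (76.7%, against 49.7% of the 10338 genes), with a median of 0.24 against -0.00106. ACAT2 differed by 0.55 (SE 0.12, FDR = 0.00392) and EBP by 0.57 (SE 0.13, FDR = 0.00966), and in both the 4 SLIRP-1nM DHT libraries given above were higher than the 4 SLIRP-Veh libraries. In all, 5 genes had separated libraries as higher (against 4.31% of all genes) and 1, ABCA1, as lower (against 4.08%). INSIG2, the second INSIG protein, had a fold change of -0.73 and just missed (FDR = 0.0106). Its lowest value was 35.2 CPM in replicate 1 of SLIRP-1nM DHT, where the other 3 libraries of that group held 51.5 to 83.2 CPM. The EBP call was lost in 9 alternatives and the ACAT2 call in 4, and the count of higher genes was 0 when replicate 1 or 2 of SLIRP-Veh or replicate 2 of SLIRP-1nM DHT was left out and 1 when replicate 3 or 4 of NS-Veh, replicate 1 of NS-1nM DHT, or replicate 1 or 3 of SLIRP-1nM DHT was. INSIG2 passed as lower when replicate 1 of NS-1nM DHT or replicate 2 of SLIRP-1nM DHT was left out, and with DESeq2.

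Both siRNAs gave DHT differences of the same sign for 26 of the 30 genes (86.7%), as they did for 65.6% of the 10338 genes tested in both. A total of 22 were above 0 in both (73.3%, against 32.7% of those genes) and 4 were below 0 in both (13.3%, against 32.9%), namely TM7SF2, INSIG2, STARD4 and ABCA1. The difference in DHT response between the siRNAs passed for 0 of 10684 genes (0%) with edgeR, with 388 genes (3.63%) at an unadjusted p under 0.05, and for 0 with DESeq2. Among the 30, EBP alone was under that unadjusted level, with a difference of 0.46 and an SE of 0.20.

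DHT was also compared with vehicle over all 16 libraries with siRNA as a covariate, a fit chosen after seeing the data. In it, 7 of the 30 genes were higher (against 2.43% of 10684 genes) and 2 were lower (against 1.83%). The higher genes were ACAT2, HMGCS1 and FDPS of the mevalonate steps and FDFT1, LSS, SC4MOL and DHCR7 of the sterol steps. No regulator, target or transport gene passed as higher in that fit. SREBF2 missed with a difference of 0.21 (SE 0.06, FDR = 0.0141) and passed in 4 alternatives at the same threshold, among them DESeq2 (FDR = 0.00365) and the replicate block (FDR = 0.00412). The lower genes were INSIG2 and ABCA1.

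Among the higher genes, FDPS ran from 112 to 204 CPM in the 8 vehicle libraries (median 145) and from 171 to 259.5 CPM in the 8 DHT libraries (median 196), a difference of 0.46 (SE 0.08, FDR = 0.00015). DHCR7 ran from 169 to 218 CPM (median 192) in vehicle and from 186 to 306 CPM (median 259) in DHT, a difference of 0.38 (SE 0.07, FDR = 0.000412). Both groups overlapped over the 8 and 8 libraries, although the 4 and 4 NS libraries did not. ACAT2 differed by 0.46 (SE 0.09, FDR = 0.000303) and SC4MOL by 0.34 (SE 0.07, FDR = 0.000676), so SC4MOL was higher with DHT and lower with SLIRP siRNA. HMGCS1, FDFT1 and LSS, with fold changes of 0.31, 0.24 and 0.33, lost their calls when replicate 1 of SLIRP-Veh was left out, which lowered the count of higher genes from 7 to 4. Of 20 alternatives, the call was lost in 2 for HMGCS1, in 8 for FDFT1 and in 11 for LSS.

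ABCA1 (chr9:107543287-107690436), the exporter, was at 32.0, 41.7, 24.4 and 28.1 CPM in NS-Veh and 31.4, 25.0, 32.3 and 47.3 CPM in SLIRP-Veh. With DHT it was at 16.8, 15.4, 21.8 and 16.1 CPM in NS-1nM DHT and 19.6, 14.1, 20.4 and 23.3 CPM in SLIRP-1nM DHT. Each DHT library was below each vehicle library, on 10 to 54 counts, and the difference was -0.77 (SE 0.16, FDR = 0.00114), or 1.71-fold lower. INSIG2 (chr2:118846028-118868573) was at 100.1, 95.0, 82.6 and 75.5 CPM in NS-Veh and 91.2, 106, 94.2 and 78.9 CPM in SLIRP-Veh. With DHT it was at 84.9, 57.8, 68.8 and 50.5 CPM in NS-1nM DHT and 35.2, 83.2, 53.4 and 51.5 CPM in SLIRP-1nM DHT. Replicate 1 of NS-1nM DHT and replicate 2 of SLIRP-1nM DHT reached into the vehicle range, and the difference was -0.56 (SE 0.12, FDR = 0.00162), or 1.48-fold lower. Both calls held in each alternative run on this fit.

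**Figure D5:**
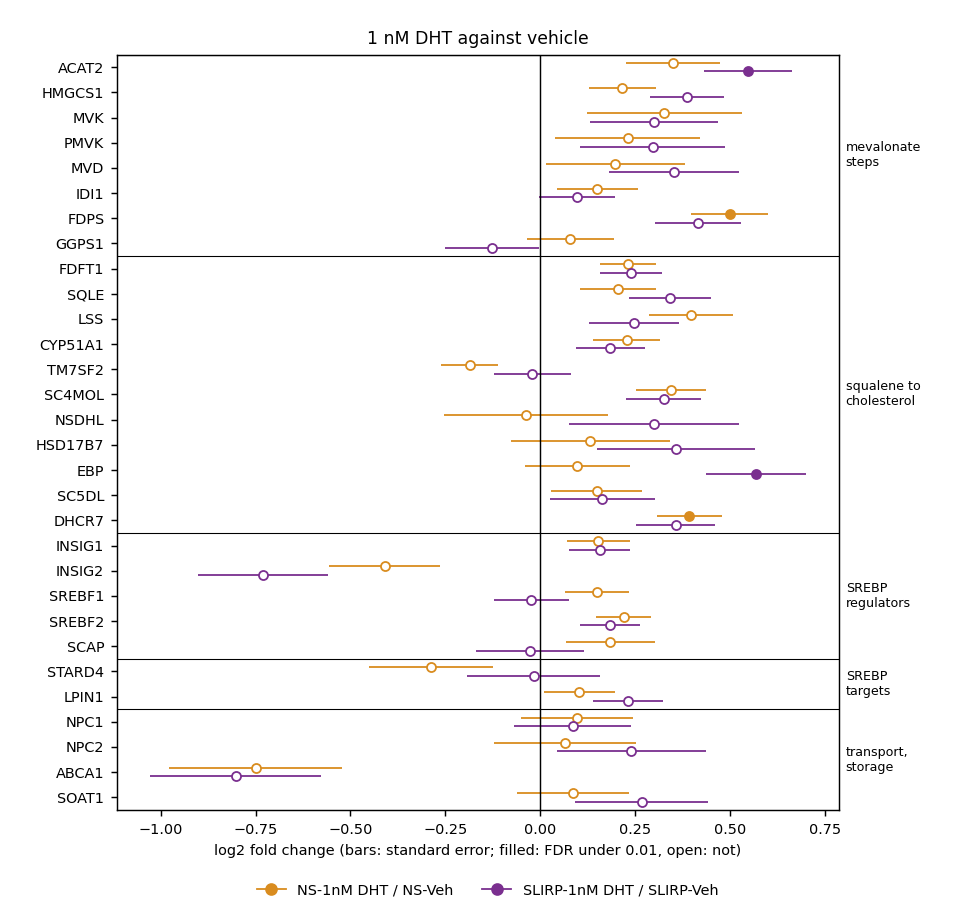
Log2 fold change of 1 nM DHT over vehicle (x axis, bars are the SE) for each of the 30 genes in pathway order (y axis), in NS and in SLIRP siRNA cells, from 4 libraries per group. Filled points have an FDR under 0.01 (FDPS and DHCR7 in NS, ACAT2 and EBP in SLIRP siRNA cells), most points lie right of 0, and INSIG2 and ABCA1 lie left of it in both.

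A further 45 genes of sterol sensing, transport, isoprenoid use and oxysterol binding were listed, of which 40 were tested between the siRNAs over 16 libraries. Of these, 10 were higher (25%, against 17.8% of all genes) and 8 lower (20%, against 17.4%). The largest differences were in PDSS1, a subunit of the synthase of the ubiquinone side chain (1.15, SE 0.23, FDR = 0.000125), OSBPL8, a lipid transfer protein of the endoplasmic reticulum (0.99, SE 0.09, FDR = 4.74e-10), ABCG1, a cholesterol exporter (-0.91, SE 0.26, FDR = 0.00418), and NR1H2, a receptor for oxysterols (-0.79, SE 0.17, FDR = 0.000309). Counts were low for PDSS1, at 1 to 13 in NS-Veh, and for ABCG1, at 6 to 10 in SLIRP-1nM DHT. Within treatments, PDSS1 did not pass in vehicle (FDR = 0.0123). ABCG1 (-0.67, FDR = 0.139) and NR1H2 (-0.73, FDR = 0.0105) did not pass in DHT. LBR, the other enzyme able to carry out the reduction that TM7SF2 catalyses, was also lower (-0.58, SE 0.12, FDR = 0.000182). Its difference was -0.88 (SE 0.16, FDR = 2.45e-05) in vehicle and -0.32 (SE 0.14, FDR = 0.0768) in DHT, where it did not pass. It was singled out after its values were seen. Within vehicle 5 of 41 were higher (12.2%, against 11.8% of all genes) and 6 lower (14.6%, against 9.95%). Within DHT 5 of 41 were higher (12.2%, against 12.8%) and 3 lower (7.32%, against 11.6%). With DHT in NS cells, 1 of 39 was higher (2.56%, against 0.849%) and 0 lower (against 0.463%) with edgeR, where 9 had an unadjusted p under 0.05, against 14.3% of all genes. In SLIRP siRNA cells 0 of 41 passed in either direction with edgeR (against 0.636% higher and 0.534% lower), where 7 had an unadjusted p under 0.05, against 15.6% of all genes.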

How the data were processed

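The authors sequenced single-end 50-base reads from 16 LNCaP libraries, and per the labels used hg19, CASAVA and RSEM. For 20531 entries the authors deposited whole numbers rounded from estimated counts, and a normalized score table made by upper-quartile scaling. The 29 entries with no symbol were kept by identifier and held up to 0.042% of a library.

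The deposited counts were analysed in R 4.3.3 with edgeR 4.0.16 (TMM, filterByExpr, glmQLFit, glmQLFTest) and Benjamini-Hochberg adjustment over all genes tested. The siRNAs were compared over 16 libraries without a covariate, the treatments over the 8 libraries with NS, and all else as contrasts of a 4-group model. A call is an FDR under 0.01. SE is the size of the log2 fold change divided by the square root of F, and CPM use TMM library sizes. The fits were tested on simulated data.

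Alternatives were DESeq2 1.42.0, upper-quartile normalization, no filter, an FDR of 0.05, the replicate block, treatment as a covariate, a 4-group model, limma 3.58.1 on log2 of the normalized table plus 1, and leaving out each library. The members and lists were chosen with earlier results of these data known. Library values are given for the genes with the largest changes among those called, up to 8 over 16 libraries and 4 elsewhere, and up to 4 of the further pathway genes are named. Some genes in the tests and counts are not reported here by name. Positions and lengths come from GENCODE lifted to hg19, promoters from RefSeq on GRCh38.p14. Figures used matplotlib 3.10.9. P-values measure the spread between these libraries, and more deeply counted genes and libraries carry less error.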

Additional observations from a re-analysis of the deposited data

Results flagged for a closer look

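Of 120 sets of 4 libraries (30 genes in 4 groups), 7 held 1 library whose gap to the next, divided by the range, exceeded Dixon's critical value for 4 values, and chance alone flags about 1 in 20 such sets. PMVK in NS-Veh replicate 1 was at 46.0 CPM (23 counts), where the other 3 libraries held 25.5 to 28.1 CPM. HSD17B7 in NS-Veh replicate 2 was at 46.4 CPM (20 counts) against 22.0 to 24.4 CPM. LPIN1 in NS-Veh replicate 1 was at 128 CPM against 153 to 158 CPM. DHCR7 in NS-1nM DHT replicate 1 was at 306 CPM against 256 to 263 CPM, and its call in NS cells was lost without each of the 8 NS libraries in turn. IDI1 in SLIRP-Veh replicate 2 was at 282 CPM against 237 to 240.3 CPM. GGPS1 and SREBF2 both stood apart in SLIRP-1nM DHT replicate 3, GGPS1 at 139.8 CPM against 109.5 to 114 CPM and SREBF2 at 402 CPM against 463 to 471 CPM. These values came from libraries of 436353 to 1689708 counts, and no cause was tested.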

How the results depend on the processing

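No call reversed its sign under any alternative. Over 16 libraries, 8 of the 12 genes called between siRNAs kept their call in each alternative: HMGCS1, MVK, IDI1, EBP, INSIG1, LPIN1, TM7SF2 and SC5DL. The others lost it in some, ACAT2 with limma (FDR = 0.0108), CYP51A1 in 7 alternatives, SC4MOL in 6 and SOAT1 in 3. In vehicle 5 of 6 and in DHT 9 of 10 calls held. Leaving out 1 library gave 7 to 8 higher and 2 to 4 lower genes over 16 libraries, 3 to 5 higher and 2 to 3 lower in vehicle, and 7 to 8 higher and 2 to 3 lower in DHT. An FDR of 0.05 gave 9 higher and 4 lower in vehicle.

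For DHT in NS cells, where 2 genes were higher, DESeq2, the 4-group model and limma gave 0, an FDR of 0.05 gave 4 and leaving out 1 library gave 0 to 1. For DHT in SLIRP siRNA cells, the 2 higher genes became 1 with upper-quartile normalization, 4 with no filter or an FDR of 0.05, and 0 to 3 with 1 library left out, and the 0 lower genes became 1 with DESeq2, upper-quartile normalization or no filter, 2 at an FDR of 0.05 and 0 to 1 with 1 library left out. In the fit of DHT over 16 libraries, 6 of 9 calls held in each alternative, an FDR of 0.05 gave 11 higher genes, and leaving out 1 library gave 4 to 7 higher. Over all genes tested, calls for DHT in NS cells numbered 136, and 236 with no filter, 272 at an FDR of 0.05, 270 with the replicate block, 27 with limma, and 83 and 87 without replicates 1 and 2 of NS-Veh. For DHT in SLIRP siRNA cells they numbered 125, and 220 with no filter, 309 at an FDR of 0.05 and 73 without replicate 1 of SLIRP-Veh. The fit of DHT over 16 libraries called 455, and 893 at an FDR of 0.05, and the interaction called 0, 11 with no filter (none of the 30) and 1 without replicate 2 of NS-1nM DHT. The cause of these changes was not tested.

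Same-numbered libraries deviated together by correlations of 0.000111 to 0.201 over 6965 genes, and only some exceeded 0.1. Correlations between differently numbered libraries were not computed, so these values do not settle whether the numbers mark pairs. The main fits did not pair them. With the replicate number as a block, 4 genes were higher with DHT in NS cells (LSS and SC4MOL joining), 1 was lower with DHT in SLIRP siRNA cells, and 10 were higher with SLIRP siRNA over 16 libraries, and no other count of the 30 genes moved by over 1.5 times. Depth limits the genes with few counts, such as MVK, ABCA1, PMVK, NSDHL and HSD17B7, each with under 30 counts in some libraries.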
